A study of Mus musculus with 5 samples.

Results

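A stretch of 10 Mb of mouse chromosome 16, from 33.5 to 43.5 Mb in mm9 (chr16:33500001-43500000), held more of the contacts of the Dppa2/4 bait in embryonic stem cells with a 350 kb boundary deletion than in wild type. It comprises 2000 of the 19951 windows of 5 kb in the table of inbred libraries, and it starts 5.11 Mb and ends 15.1 Mb upstream of the centre of the bait gap. Upstream means lower coordinates. The stretch was chosen by its limits because its signal was higher in the 350 kb library, so its ratios describe it and test nothing. 3 libraries were compared, 1 for each group: unedited mouse embryonic stem cells of the inbred line 46C (wild type) and cells in which CRISPR removed, per the labels, either 45 kb or 350 kb at a domain boundary. Per the labels' protocols, 46C cells were grown on gelatin in GMEM with serum and LIF, and the labels name 46C for wild type alone and give no number of clones for either deletion. 4C reads DNA contacts, so the labelled cell type could not be checked by marker expression. With 1 library a group there is no replicate check, and no ratio here has a p-value.

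4C-seq counts the DNA fragments that were ligated to a chosen bait fragment in fixed chromatin, so a window with more reads lay near the bait more often. Chromosomes fold into domains whose boundaries limit contacts, and over several megabases a locus tends to contact regions of the same chromatin type. The Dppa2/4 domain, named for chromatin-associated proteins of pluripotent cells, replicates early in embryonic stem cells, and the series asks which elements in cis control when and where DNA replicates. The pair of bait oligos that the labels list for all 3 libraries is shown because every value here is a contact with that bait:
forward: agcgtgaggtacatgaaagc
reverse: cctgaagagctggtaccaaa
No genome of mm9 was used here, so neither oligo was placed on the chromosome, and distances are from the centre of the gap of 100 kb without windows, at 48605000. The protocol in the labels names other primers, so the bait position is uncertain.

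The stretch lies on a side of chromosome 16 with both gene-dense and gene-poor parts. In the GRCm38.p6 annotation, from far to near the bait, the order is Kalrn (a signalling protein of neurons), Adcy5 (an adenylyl cyclase), Casr (the calcium-sensing receptor), Cd86 (a co-stimulatory ligand), Polq (a DNA repair polymerase), Gsk3b (a kinase of Wnt signalling), Cd80 (a second co-stimulatory ligand), Arhgap31, Igsf11 (an adhesion protein), Lsamp (a neuronal adhesion protein) and Gap43 (a neuronal growth protein). There are 63 protein-coding genes between Kalrn and Igsf11 and 2 between Igsf11 and Gap43. That annotation is of another build than the table, so no gene was placed in a bin and genes carry no values here.

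The wild-type library reached more windows than either deletion, while depth was lowest in the 350 kb library. The deposited running means corresponded to 1714005 reads in wild type, 1772088 in the 45 kb library and 1465714 in the 350 kb library. Windows with reads numbered 9134, 8075 and 7914. The windows at 0 spanned 45 kb (48.185 to 48.23 Mb) in the 45 kb library and 330 kb (47.9 to 48.23 Mb) in the library labelled 350 kb. The windows from 47.9 to 48.23 Mb held 4.75% of the wild-type signal and were left out of all libraries before their totals were set equal. Signal below is the mean per 5-kb window after this rescaling, and a bin counts as higher when its log2 ratio is 0.5 or more, a 1.41-fold difference.

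Within the stretch the mean signal was 57.2 per window in wild type, 63.7 in the 45 kb library and 84.3 in the 350 kb library. These levels were 6.06%, 6.74% and 8.92% of the signal of the chromosome. The 350 kb library was thus the highest, 1.47-fold above wild type, and the 45 kb library lay between them at 1.11-fold. On the log2 scale the ratio to wild type was 0.56 in the 350 kb library and 0.16 in the 45 kb library, and the 350 kb library was above the 45 kb library by 0.40. In the reads of the windows themselves, with the running mean undone, the stretch held 98891 reads in wild type, 114425 in the 45 kb library and 130786 in the 350 kb library. The library with the fewest reads in all thus had the most in the stretch. Scaled for depth, these reads gave log2 ratios of 0.57 in the 350 kb library (95% Wilson interval 0.55 to 0.58) and 0.16 in the 45 kb library (0.14 to 0.17). These intervals treat every read as independent. Several reads can come from the same ligated molecule, so the intervals can be too narrow even for counting error. They say nothing of the spread between cultures or clones.

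**Figure D1:**
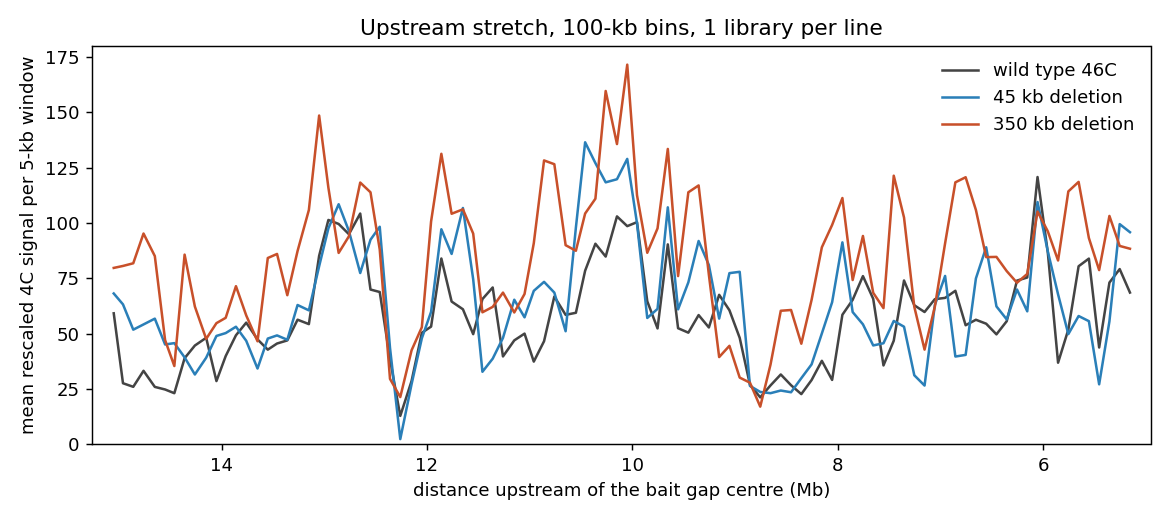
Mean rescaled 4C signal per 5-kb window (y axis) in the 100 bins of 100 kb of the stretch, against distance upstream of the bait gap centre in Mb (x axis, bait to the right), with 1 line for each library. The 3 lines share their main highs and lows, and the 350 kb library is above wild type in 84 of 100 bins.

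In 500-kb bins the gain of the 350 kb library was spread over nearly the whole stretch. The signal was above wild type in 19 of 20 bins, against 53.8% of the 186 bins of this size on chromosome 16. It was higher by a log2 of 0.5 or more in 11 of 20 bins, against 14% on the chromosome. Counted by windows with at least 1 read of their own in place of reads, 0 bins were that high. Of the 2000 windows, 1310 had reads in any library, and wild type already reached 1065. Whether this count had room to reach that level was not tested. No bin of the stretch was at -0.5 or less, against 13.4% on the chromosome. Outside the stretch 15 of 166 bins (9.04%) were that high and 25 were at -0.5 or less. The median over the 20 bins was 0.55, and 0.02 over all bins of the chromosome, where the SD between bins was 0.44. These counts come from the contrast that chose the stretch, so nothing is read from their distance to the background.

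The highest ratio was at the far end of the stretch. The bin from 33.5 to 34.0 Mb had a signal of 34.4 in wild type, 58.8 in the 45 kb library and 84.5 in the 350 kb library (log2 1.30 with 350 kb deleted and 0.78 with 45 kb deleted). Its own reads were 3069, 5197 and 6683. Both deletions were above wild type here, the 350 kb library more so. The bin from 40.0 to 40.5 Mb had a signal of 29.5 in wild type, 32.8 in the 45 kb library and 64.2 in the 350 kb library (log2 1.12 and 0.15). Its own reads were 2667, 3034 and 5342. It was the lowest bin of the stretch in wild type and in the 45 kb library, and ranked 16 of 20, counted from the highest, in the 350 kb library.

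The next 3 bins by ratio were scattered through the stretch. From 37.5 to 38.0 Mb the signal was 51.8 in wild type, 64.0 in the 45 kb library and 100.7 in the 350 kb library (log2 0.96 and 0.30). From 35.0 to 35.5 Mb it was 49.2, 53.5 and 86.2 in the same order (log2 0.81 and 0.12). From 41.5 to 42.0 Mb it was 62.2, 58.8 and 99.6 (log2 0.68 and -0.08). In the last of these the 45 kb library was slightly below wild type, so only the 350 kb library was above it. In own reads these 3 bins had log2 ratios of 1.02, 0.83 and 0.73 for the 350 kb deletion. Over all 20 bins the own reads had the same sign as the running mean in every bin for the 350 kb deletion, and 10 of the 11 higher bins were also at 0.5 or more in own reads. The other was 38.0 to 38.5 Mb, at 0.52 in the running mean and 0.38 in own reads. Own reads come from the same deposited values, so they show what the smoothing did and are no independent support.

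1 bin went the other way. From 39.5 to 40.0 Mb the signal was 36.7 in wild type, 45.7 in the 45 kb library and 31.1 in the 350 kb library. The log2 ratio was -0.24 in the 350 kb library and 0.32 in the 45 kb library. Own reads were 3086, 4067 and 2443, or -0.18 and 0.34 after scaling for depth. This bin borders the one from 40.0 to 40.5 Mb, so the lowest ratio and the second highest of the 350 kb library were neighbours. The next lowest ratios were 0.22 from 35.5 to 36.0 Mb and 0.34 from 37.0 to 37.5 Mb. The first of these was the highest bin of the stretch in wild type, with a signal of 97.1 there, 92.1 in the 45 kb library and 112.7 in the 350 kb library. The second had 54.6, 51.9 and 69.0.

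**Figure D2:**
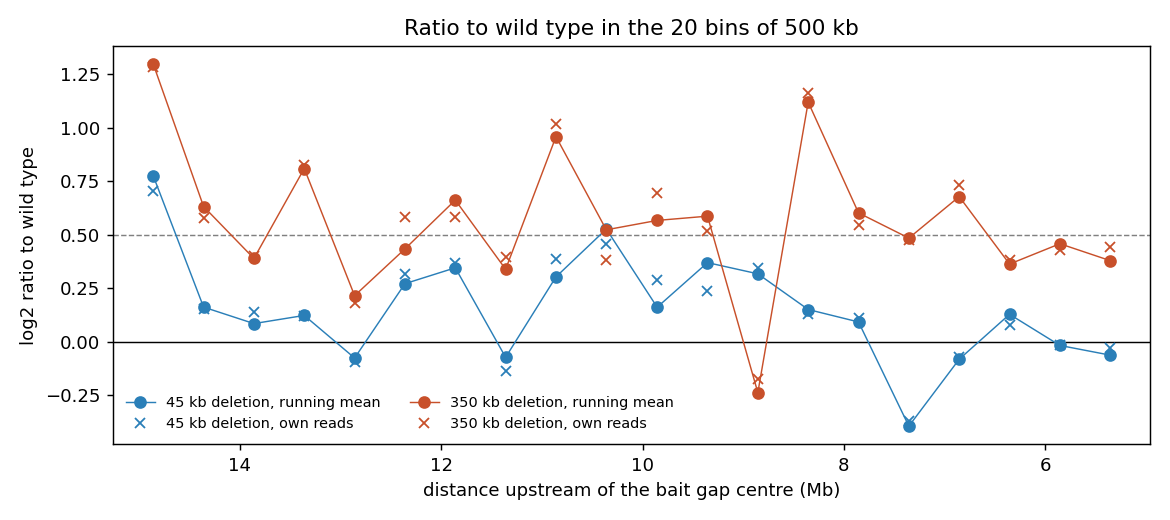
Log2 ratio to wild type (y axis) in the 20 bins of 500 kb, against distance upstream of the bait gap centre in Mb (x axis). Circles are the deposited running means and crosses the own reads, in blue for the 45 kb and in red for the 350 kb deletion, and the dashed line marks 0.5. Circles of the 350 kb deletion are above 0 in 19 bins and at or above 0.5 in 11, those of the 45 kb deletion in 14 and 2.

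The gain of a bin, its signal in the 350 kb library minus that in wild type, shows which sub-stretches carry the difference. The net gain of the stretch was 2.86 percentage points of the signal of the chromosome. The 5 bins with the largest gain held 39.3% of it, where equal shares would give 25%, and 7 bins were needed to reach 50%. No bin held more than 9.27%, the share of 33.5 to 34.0 Mb. It was followed by 37.5 to 38.0 Mb with 9.04%, 38.5 to 39.0 Mb with 7.23%, 41.5 to 42.0 Mb with 6.91% and 35.0 to 35.5 Mb with 6.84%. These 5 bins lie apart from each other, so the gain had several maxima and no single centre. The bin from 39.5 to 40.0 Mb changed it by -1.03%.

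By 2.5-Mb segments from far to near the bait, the log2 ratio of the 350 kb deletion was 0.61, 0.60, 0.57 and 0.47. The gain was 0.72, 0.80, 0.67 and 0.67 percentage points in the same order. The segments thus differed little from each other in the 350 kb library. In the 45 kb library the ratios were 0.16, 0.31, 0.21 and -0.07, so it was above wild type in the 3 segments farther from the bait and below it in the nearest.

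**Figure D3:**
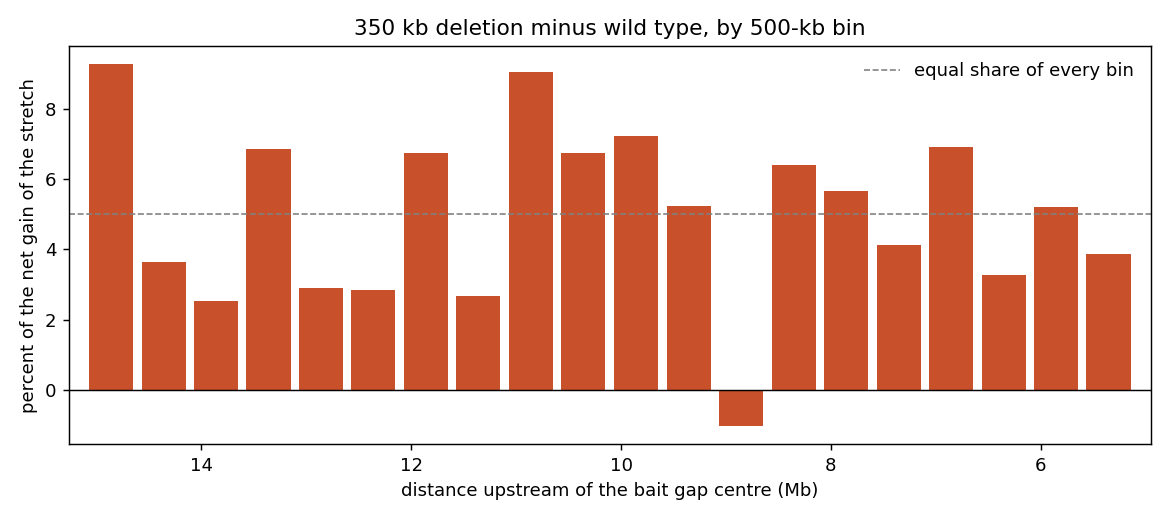
Percent of the net gain of the stretch (350 kb library minus wild type, y axis) in each 500-kb bin, against distance upstream of the bait gap centre in Mb (x axis). The dashed line is an equal share for every bin, and the bars range from -1.03% to 9.27%.

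Bins of 100 kb resolved the gain into separate runs. Of 100 bins, 56 were at 0.5 or more in the 350 kb library, against 22.5% of the 938 bins of this size on the chromosome, and 2 were at -0.5 or less, against 20.9%. In the 45 kb library 22 were at 0.5 or more, against 19.8%, and 10 were at -0.5 or less, against 15.2%. The count for the 45 kb deletion is thus near the background, and the count for the 350 kb deletion comes from the contrast that chose the stretch. In own reads 51 bins were at 0.5 or more for the 350 kb deletion, and 48 were so in both. Neighbouring bins share reads, since a running mean over 150 kb is longer than a bin.

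Runs of 3 or more neighbouring bins at 0.5 or more numbered 9, from 300 to 700 kb long. They held 47 of the 56 higher bins and 75.3% of the net gain. The runs were picked by the same ratio that gives the gain, so these shares only describe them. Runs were not counted over the rest of the chromosome. The run from 33.6 to 34.3 Mb held the most, 11.5%, with a signal of 28.5 in wild type, 50.9 in the 45 kb library and 73.0 in the 350 kb library (log2 1.36 and 0.84). Its own reads were 3491, 6395 and 8577. The run from 40.0 to 40.7 Mb held 10.9%, with a signal of 33.6, 45.6 and 75.9 (log2 1.18 and 0.44) and own reads of 4251, 6012 and 8523. Both of these runs were low in wild type, and both were intermediate in the 45 kb library.

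The other long runs had more signal in wild type and smaller ratios. Wild type is the denominator of the ratio that picked the runs, so nothing is read from this relation. From 38.8 to 39.4 Mb the signal was 59.5 in wild type, 79.2 in the 45 kb library and 102.4 in the 350 kb library (9.54% of the net gain). From 37.6 to 38.1 Mb it was 53.7, 72.1 and 104.7 (9.42%). From 35.0 to 35.6 Mb it was 55.2, 58.0 and 96.6 (9.19%). In these 3 runs the 350 kb library was the highest and wild type the lowest. From 41.7 to 42.2 Mb the signal was 56.7, 61.3 and 102.8 (8.53%), and from 36.6 to 37.1 Mb it was 62.5, 84.9 and 107.5 (8.33%). The runs from 42.7 to 43.0 Mb and from 34.5 to 34.8 Mb held 5.43% and 2.43%. In own reads all 9 runs were above wild type in the 350 kb library, and in 8 of them the 45 kb library was below 0.5 in the running mean; the exception was 33.6 to 34.3 Mb.

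The single 100-kb bin with the largest gain was 37.7 to 37.8 Mb, with a signal of 46.6 in wild type, 73.4 in the 45 kb library and 128.3 in the 350 kb library. It held 3.02% of the net gain. Its own reads were 689, 1200 and 2318, and the highest single window held 116 reads in wild type and 747 in the 350 kb library. Single windows can thus weigh heavily in a bin of this size. From 38.3 to 38.4 Mb the signal was 84.8, 118.4 and 159.7, with own reads of 1383, 2152 and 3062. From 41.1 to 41.2 Mb it was 46.8, 55.7 and 121.4, with own reads of 933, 1185 and 2416. From 38.5 to 38.6 Mb it was 98.6, 129.0 and 171.6, the highest 100-kb bin of the stretch in the 350 kb library. All 4 were ordered wild type, 45 kb, 350 kb from low to high.

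The 10 bins with the largest gain held 25.6% of the net gain, where equal shares would give 10%. Besides those 4, they began at 40.5, 41.8, 39.1, 35.5, 42.8 and 33.8 Mb. The bin at 40.5 Mb had the highest 100-kb ratio of the stretch, 1.77, with reads in 4 of its windows in wild type and in 10 in the 350 kb library. Its own reads were 357 in wild type, 1040 in the 45 kb library and 1017 in the 350 kb library, so in own reads the deletions were close there (log2 1.49 and 1.67). In the bins at 41.8, 35.5 and 42.8 Mb the 45 kb library was below wild type in the running mean, at -0.41, -0.08 and -0.06. The 350 kb library was at 1.17, 0.80 and 1.14 in them.

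Stretches that were lower in the 350 kb library were short. The 16 bins below 0 lay in 10 runs, and the longest were 3 bins each. The share of bins above 0 was 84 of 100, against 50.9% of the 938 on the chromosome, where runs were not counted. From 39.4 to 39.7 Mb the signal was 58.7 in wild type, 70.7 in the 45 kb library and 38.0 in the 350 kb library (log2 -0.63 and 0.27), with own reads of 3089, 4055 and 1608. From 41.3 to 41.6 Mb it was 62.7, 40.2 and 55.7 (log2 -0.17 and -0.64), with own reads of 2937, 1884 and 2440. The deletions thus differed in these places too: the first was lower in the 350 kb library alone, the second in both and more so in the 45 kb library.

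The main highs and lows of the profile were shared by the 3 libraries in 500-kb bins, and less closely in 100-kb bins. Over the 20 bins of 500 kb Pearson's r was 0.84 between wild type and the 45 kb library, 0.81 between wild type and the 350 kb library and 0.81 between the deletions. Over the 100 bins of 100 kb it was 0.70, 0.61 and 0.67 in the same order. These are descriptions over bins that hold the same restriction fragments in every library. The highest 500-kb bin was 3.29 times the lowest in wild type and 3.87 times in the 350 kb library. In 100-kb bins it was 9.43 times the lowest in wild type, 58.9 times in the 45 kb library and 10.1 times in the 350 kb library. The coefficient of variation over the bins was 31.1% in wild type and 27.5% in the 350 kb library.

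Bins were also split by their level in the 45 kb library, which enters neither side of the 350 kb to wild-type ratio. The 10 upper bins had a log2 ratio of 0.52 and held 55.8% of the net gain. The 10 lower bins had 0.62 and held 44.2%. In 100-kb bins the ratios were 0.55 in the upper 50 and 0.58 in the lower 50, with 28 bins at 0.5 or more in each group. The fold of the 350 kb library was thus similar in bins of high and of low signal, and the difference in signal was larger where the signal was high.

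Windows with reads add a measure that does not count repeated reads of the same fragment. In the stretch 1065 of 2000 windows had reads in wild type, 957 in the 45 kb library and 1069 in the 350 kb library. That is 53.3%, 47.9% and 53.5%. Outside the stretch the shares were 47.3%, 41.7% and 40.3%, so the 350 kb library reached fewer windows than wild type there and about as many inside. In 5-Mb tiles the 350 kb library had fewer windows with reads than wild type in all 17 tiles outside the stretch. The deficit was small from 43.5 to 48.5 Mb, next to the stretch (638 against 644). In both tiles inside, the 350 kb library had slightly more (537 against 535 and 532 against 530). The 45 kb library had fewer in all 19. Rescaled to equal totals of such windows, the log2 ratio of the stretch was 0.21 in the 350 kb library and 0.02 in the 45 kb library. By this measure the difference of the 350 kb library had the same direction, but it comes from the deposited values that chose the stretch and is no independent support. By 2.5-Mb segments from far to near the bait, windows with reads numbered 274, 261, 250 and 280 in wild type. In the 350 kb library they numbered 271, 266, 247 and 285, so some segments had fewer than wild type and some more. The log2 ratio of 0.21 was below the 0.56 of the signal, and the cause was not tested. Of the 2000 windows, 1310 had reads in any library, and wild type already reached 1065. The 1310 are the windows seen in these libraries and set no upper limit. From 43.5 to 47.9 Mb 68.5% of windows had reads in wild type, against 53.3% in the stretch. After scaling for depth, a window with reads held 90.8 reads on average in wild type, 112.5 in the 45 kb library and 133.8 in the 350 kb library. In most 5-Mb tiles outside the stretch reads per window with reads were higher in the 350 kb library than in wild type too. The exceptions were 8.5 to 13.5 Mb (71.3 in wild type and 70.4) and 48.5 to 53.5 Mb (714.5 and 669.0). Reads per window were 76.0 in wild type and 96.3 in the 350 kb library in the 10 Mb farther upstream (23.5 to 33.5 Mb). In the 10 Mb at the same distance downstream they were 88.2 and 97.5, and from 3.5 to 23.5 Mb, where the signal of the 350 kb library was lower, 68.3 and 74.7. Higher reads per window were thus not limited to the stretch. The number of windows reached also moves with the depth and the complexity of a library, whose part was not tested.

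**Figure D4:**
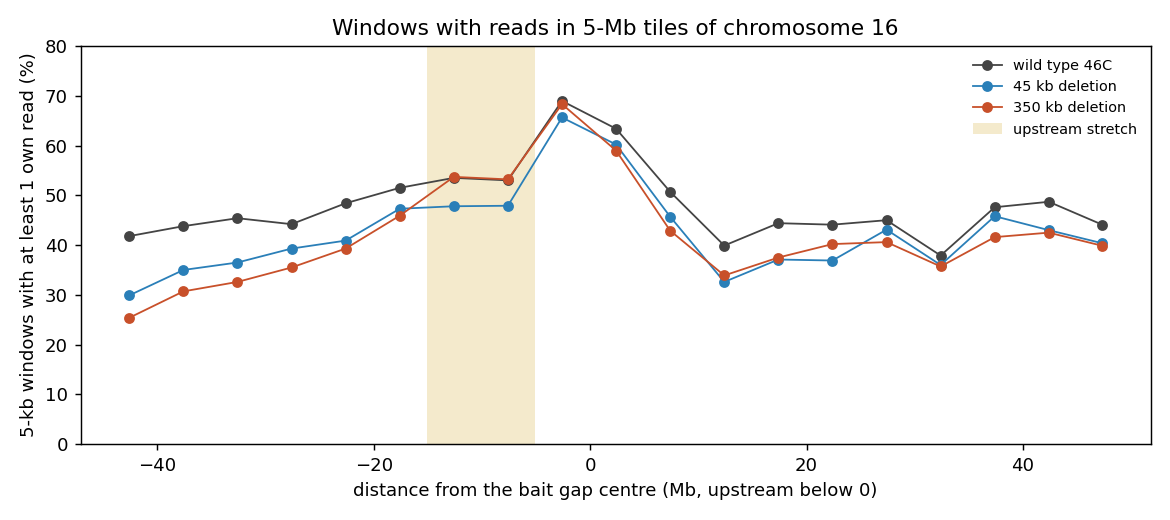
Percent of 5-kb windows with at least 1 own read (y axis) in 5-Mb tiles of chromosome 16, against distance from the bait gap centre in Mb (x axis, upstream below 0), with 1 line for each library. In the shaded stretch the line of the 350 kb deletion meets that of wild type, with 53.7% and 53.2% against 53.5% and 53.0%. It is below wild type in the 17 other tiles, but only slightly from 43.5 to 48.5 Mb, with 68.31% against 68.95%.

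Most of the gain lay in windows that also held most of the reads. The 877 windows with reads in both wild type and the 350 kb library held 83.8% of the net gain in own reads. They held 91457 of the 98891 reads in wild type and 117275 of the 130786 in the 350 kb library. Of them, 573 were higher and 304 lower in the 350 kb library. These counts come from the contrast that chose the stretch, and the chromosome was not counted this way. The 192 windows with reads in the 350 kb library and none in wild type added 31.9%, and the 188 windows with reads in wild type and none in the 350 kb library changed it by -15.7%. In the 699 windows with reads in all 3 libraries the log2 ratio was 0.47 in the 350 kb library and 0.15 in the 45 kb library. Single windows weighed heavily: the 100 with the largest gain, chosen for it, summed to 76.5% of the net gain, against which the rest had both gains and losses. After scaling for depth, the median window with reads held 54.8 reads in wild type, 69.6 in the 45 kb library and 84.2 in the 350 kb library. The highest window held 872, 966 and 1063. Median and highest window thus followed the same order as the mean. The 100 windows with the most reads held 35.5%, 38.2% and 33.1% of the reads of the stretch, so the reads of the 350 kb library were no more concentrated in few windows than those of the others.

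The 45 kb deletion gave a smaller difference, with a count of higher bins close to that of the chromosome. Its signal was above wild type in 14 of 20 bins of 500 kb, against 54.8% on the chromosome, and at 0.5 or more in 2 bins, against 10.8%. The 2 bins were 33.5 to 34.0 Mb (0.78) and 38.0 to 38.5 Mb (0.53), and the 350 kb library was also at 0.5 or more in both. In own reads 38.0 to 38.5 Mb was at 0.46 for the 45 kb and at 0.38 for the 350 kb deletion, so 1 bin was left for the 45 kb deletion. In 38.0 to 38.5 Mb the signal was 83.3 in wild type, 119.9 in the 45 kb library and 119.6 in the 350 kb library. It was the highest bin of the stretch in the 45 kb library, and the deletions were nearly equal there. The lowest ratio of the 45 kb deletion was -0.39, from 41.0 to 41.5 Mb, where the signal was 55.8 in wild type, 42.5 in the 45 kb library and 78.1 in the 350 kb library.

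Compared directly, the 350 kb library was above the 45 kb library in 18 of 20 bins, against 47.8% on the chromosome, and by 0.5 or more in 7, against 8.06%. It was below by 0.5 or more in 1, against 12.4%. The exceptions were 38.0 to 38.5 Mb, at -0.004, and 39.5 to 40.0 Mb, at -0.56. The largest differences were 0.97 from 40.0 to 40.5 Mb, 0.88 from 41.0 to 41.5 Mb and 0.76 from 41.5 to 42.0 Mb, all in the part nearer the bait. Both deletions share the wild-type library, so their ratios to it are not independent. The stretch was chosen for its higher signal in the 350 kb library, which is also 1 side of this comparison. Nothing is thus read from the distance of these counts to the background.

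The limits of the stretch were not alike. At the far limit the 350 kb library was at 0.46 just outside (33.0 to 33.5 Mb) and at 1.30 just inside, and at 0.48 and 0.52 in the 2 bins farther out. The 45 kb library was at 0.53 just outside, so beyond this limit both deletions were above wild type to a like extent. At the near limit the 350 kb library was at 0.38 just inside (43.0 to 43.5 Mb) and at 0.10 just outside, where the wild-type signal was 69.7 inside and 126.1 outside. The next bin, from 44.0 to 44.5 Mb, was at 0.55 again. The higher signal thus continued beyond both limits at some places.

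Along chromosome 16 the 2 tiles of 5 Mb in the stretch were at 0.60 and 0.52 for the 350 kb deletion. The 17 other tiles ranged from -0.57 to 0.31, the highest being 78.5 to 83.5 Mb. Next to the stretch, 28.5 to 33.5 Mb was at 0.24 and 43.5 to 48.5 Mb at 0.05. Farther upstream, the 3 tiles from 3.5 to 18.5 Mb were at -0.57, -0.54 and -0.42. On the downstream side, the 10 Mb at the same distance from the bait (53710001 to 63710000) had a signal of 47.2 in wild type, 49.8 in the 45 kb library and 44.0 in the 350 kb library. The log2 ratio there was -0.10 for the 350 kb deletion, against 0.56 in the stretch, so at this distance the 350 kb library was above wild type upstream and slightly below it downstream. The distances are equal on the undeleted chromosome only. In the 350 kb library the deleted windows (47.9 to 48.23 Mb, 330 kb) lie between the stretch and the bait gap, which places the stretch nearer. The part of this in the ratios was not tested.

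For the 45 kb deletion the tiles of the stretch were at 0.24 and 0.07, and 8 of the 17 others were above 0.15, up to 0.31. In shares of the chromosome the 350 kb library gained 2.86 percentage points in the stretch and 1.89 between it and the deletion (43.5 to 47.9 Mb). Its share changed by -3.54 points downstream of the bait up to 53.7 Mb, by -1.71 points from 3.5 to 23.5 Mb and by -0.58 points between the deletion and the bait gap. Shares add to the same total, so a gain in some parts and a loss in others come together, and which moved cannot be told apart.

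**Figure D5:**
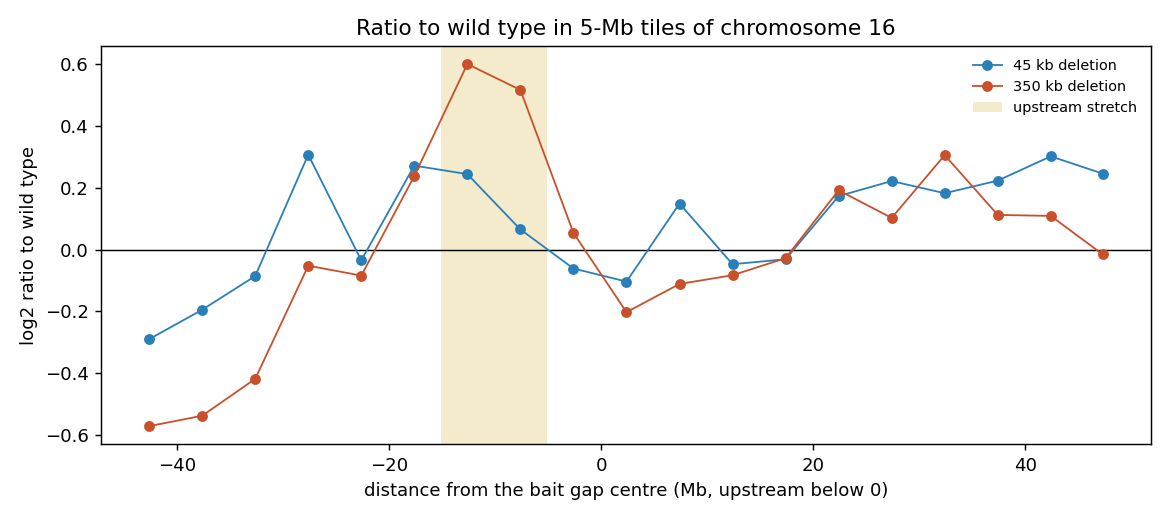
Log2 ratio to wild type (y axis) in 5-Mb tiles of chromosome 16, against distance from the bait gap centre in Mb (x axis, upstream below 0), in blue for the 45 kb and in red for the 350 kb deletion. The 2 tiles of the shaded stretch are at 0.60 and 0.52 in the 350 kb library and at 0.24 and 0.07 in the 45 kb library.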

How the data were processed

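The deposited values are a 4C coverage signal, per the file headers. The authors averaged it over 30 windows of 5 kb (150 kb), per the file's name, and the columns were scaled to nearly equal totals. Chromatin was cut with HindIII and DpnII, per the labels' protocols. Bowtie2 and the builds mm9 and mm10 are named in the submitters' processing notes, without versions. The table has no chromosome column and was read as chromosome 16 of mm9, since its last window with reads ended at 98315000. The table of 2 hybrid clones has another bait and build and was not used here.

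Columns were rescaled to equal totals without the windows from 47.9 to 48.23 Mb and averaged in 100-kb and 500-kb bins. The running mean was undone after leaving out deleted windows, which gave whole reads for 100% of windows, within 0.01, and 0 windows below 0; the procedure was tested on simulated reads. Background shares are over the 100-kb and 500-kb bins from 3.5 to 98 Mb in which no window is missing or left out. Depth was 1465714 to 1772088 reads a library. Named are the 5 highest and 3 lowest 500-kb ratios, the 5 largest 500-kb and 10 largest 100-kb gains, runs of 3 or more 100-kb bins at 0.5 or more, and bins at the limits; other bins were chosen after their values were seen. The stretch, lists and settings were chosen with earlier results of these data known. Values were computed with numpy 2.4.6, scipy 1.17.1 and pandas 2.3.3 in Python 3.11.15 and drawn with matplotlib 3.10.9.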

Additional observations from a re-analysis of the deposited data

Results flagged for a closer look

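In 7 of the 20 bins of 500 kb the deletions lay on opposite sides of wild type. The share of such bins over the whole chromosome was not counted, so it is not known whether 7 of 20 is unusual. Each deletion is 1 library, so the difference was not tested. In 6 bins the 350 kb library was above and the 45 kb library below wild type. The log2 ratio of the 350 kb library minus that of the 45 kb library was 0.88 from 41.0 to 41.5 Mb, 0.76 from 41.5 to 42.0 Mb, 0.48 from 42.5 to 43.0 Mb, 0.44 from 43.0 to 43.5 Mb, 0.41 from 37.0 to 37.5 Mb and 0.29 from 35.5 to 36.0 Mb. From 39.5 to 40.0 Mb it was -0.56, with the 350 kb library below and the 45 kb library above. Of these 7 bins, 4 lie between 41.0 and 43.5 Mb, at the end of the stretch nearer the bait.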

How the results depend on the processing

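No direction of the stretch ratios changed under the settings tried. For the 350 kb deletion to wild type (0.56) the log2 ratio was 0.63 without rescaling, 0.59 with totals set over windows outside the stretch and over 2 Mb from the bait, 0.57 with own reads capped at the 95th percentile, 0.21 with windows with reads, 0.64 with the median of windows and 0.54 with 500 kb removed at both ends. For the 45 kb deletion to wild type (0.16) it was 0.17, 0.094, 0.18, 0.023 and 0.087 under those settings up to the median. For the 350 kb to the 45 kb deletion (0.40) it was 0.46 without rescaling, 0.49 with distant totals, 0.18 with windows with reads and 0.55 with the median. By windows with reads, 0 bins of 500 kb were at 0.5 or more for either deletion. In signal 11 bins were that high for the 350 kb and 2 for the 45 kb deletion. Whether windows with reads had room to rise that far was not tested. For the 45 kb deletion 1 bin, not 2, was that high with distant totals and in own reads; the cause was not tested. The 5 largest gains held 38.1% without rescaling, 38.7% with distant totals, 42.2% in own reads, 37.8% capped and 38.6% by windows with reads, against 39.3%. No paired analysis was possible because each group is 1 library. The depth does not set the counting error, as several reads can come from the same ligated molecule. The spread between cultures is not measured by 1 library.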
